A study of Homo sapiens with 4 samples.

Results

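CYP1B1 and 5 genes of the aryl hydrocarbon receptor (AHR) pathway were followed through 4 plates of single MCF10A cells. The rows were taken by gene name, so that the group held CYP1B1, CYP1A1, AHR, ARNT, TIPARP and AHRR, 6 of the 19577 genes with a row on at least 1 plate. All 6 were found. The group was chosen by name with measured values of these same cells known, namely how CYP1B1 ran against CDH1 and FN1, so the course of these genes along the epithelial-to-mesenchymal transition (EMT) is given as a description with no test. MCF10A is an untransformed human mammary epithelial line, here carrying a histone H2B-GFP marker. All cells were grown for 6 days as a circular patch of 10000 seeded cells on a fibronectin-coated dish, in medium with 5% donor equine serum, EGF, hydrocortisone, cholera toxin and insulin, which no group lacked. Patches were phototagged with photoactivatable JF646 and JF549 dyes in concentric rings of 1000 to 1500 µm (low resolution, 2 plates) or in 250 µm bands at the edge (high resolution, 2 plates), and live cells were sorted into 384-well plates. Cells were incubated with each dye at 40 µM for 20 min, and the tagged rings were lit at 405 nm. No AHR ligand or inhibitor is named among the additions in either setup, and ligands in the medium were not measured. Which ring a cell came from was not used here.

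AHR is a ligand-activated transcription factor that waits in the cytoplasm in a complex with HSP90. Once a ligand binds, for example a dioxin, a polycyclic aromatic hydrocarbon or a tryptophan metabolite, it moves to the nucleus, pairs with ARNT and binds DNA with the core GCGTG. Its best known targets are CYP1A1 and CYP1B1, cytochrome P450 enzymes that oxidise polycyclic aromatic hydrocarbons and estradiol. TIPARP, a mono-ADP-ribosyltransferase, and AHRR, which competes with AHR for ARNT, are also targets and act back on the receptor. In breast epithelium CYP1B1 is known for making catechol estrogens, and it is often listed among genes of mesenchymal cells.

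The genes lie apart in the genome. In GRCh38 coordinates CYP1B1 spans chr2:38067509-38076151, CYP1A1 spans chr15:74719542-74725528, AHR spans chr7:17298652-17346147, ARNT spans chr1:150809713-150876599, TIPARP spans chr3:156674590-156706770 and AHRR spans chr5:321714-438285. RefSeq promoter windows (GRCh38.p14, 250 bases before to 50 bases after a start site) were matched by symbol for 5 of the 6 genes, with 8 windows in all. The letters GCGTG were searched on both strands. They were present in 1 window of AHR, 1 of CYP1A1, 1 of 3 of TIPARP and 2 of 2 of AHRR, and in none of ARNT. Since 36.5% of all 35116 windows held them, a match describes the window and no more. The longer form TNGCGTG was found in 1 window of AHRR only and in 5.51% of all windows. The upstream 250 bases of 3 target genes are shown because these genes are compared cell by cell further on, with matches on either strand in capitals (CACGC is GCGTG on the opposite strand).
CYP1A1, chr15:74725529-74725778, minus strand: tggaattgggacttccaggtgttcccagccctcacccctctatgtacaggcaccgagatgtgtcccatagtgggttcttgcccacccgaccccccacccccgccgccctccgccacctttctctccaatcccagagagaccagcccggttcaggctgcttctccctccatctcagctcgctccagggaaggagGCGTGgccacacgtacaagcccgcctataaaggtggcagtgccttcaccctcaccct
AHRR, chr5:321464-321713, plus strand: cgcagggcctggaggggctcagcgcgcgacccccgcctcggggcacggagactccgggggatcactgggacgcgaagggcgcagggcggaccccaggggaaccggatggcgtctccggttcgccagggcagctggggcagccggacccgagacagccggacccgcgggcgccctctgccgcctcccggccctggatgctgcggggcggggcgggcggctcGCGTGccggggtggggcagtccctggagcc
TIPARP, chr3:156674340-156674589, plus strand: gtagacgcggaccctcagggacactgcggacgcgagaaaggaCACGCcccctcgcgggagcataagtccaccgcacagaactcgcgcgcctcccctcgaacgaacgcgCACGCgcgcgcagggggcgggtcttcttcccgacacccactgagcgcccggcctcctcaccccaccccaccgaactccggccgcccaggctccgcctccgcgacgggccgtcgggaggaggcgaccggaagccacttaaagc
The CYP1A1 match starts 57 bases before the start site, the AHRR match 30 bases before it, and the TIPARP matches 208 and 142 bases before it. The AHR window held its match 38 bases into the transcript.

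Plate totals ran from 11709628 to 14992348 deposited counts. After the filter 1146 of 1536 wells remained, 271 to 293 per plate, with a median of 30118 to 40893 counts per cell. By the labels of the deposited tables, low-resolution replicate 1 was run on a flow cell of its own and the remaining 3 plates shared 1. The cells carried the basal and luminal keratins of the line (summed basal markers 42.2 to 59.8 and luminal markers 7.14 to 7.66 counts per 10000), while fibroblast markers summed to at most 0.131, endothelial markers to at most 0.234 and immune markers to at most 0.571. Most of the immune sum was CD14, while PTPRC, the defining leukocyte gene, reached at most 1.71% of cells. Some genes of the epithelial lists were rare too: TP63 (basal) reached at most 4.12% of cells, ESR1 (luminal) 3.78% and PGR (luminal) 0.344%.

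CYP1B1 was present in nearly every cell. Its level was 5.83, 4.88, 2.12 and 3.04 counts per 10000, in the order low-resolution replicates 1 and 2, then high-resolution replicates 1 and 2, which is kept throughout. Both high-resolution plates lay below both low-resolution plates, as they did for 32.1% of the 12437 genes tested between the setups, while 25.6% lay the other way round. CYP1B1 had a UMI in 97.6%, 95.6%, 88.3% and 92.5% of cells (exact 95% intervals from 95.1 to 99.0% down to 84.1 to 91.8%). Wells under 2000 features, which hold little RNA, had a CYP1B1 UMI in 30.0 to 60.8% of cases, at median depths of 1398 to 4889 counts. Thinned to 10000 UMIs per cell, the share was 88.9%, 89.9%, 68.3% and 79.4%.

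AHR, the receptor itself, followed the same order of setups. It stood at 1.96, 1.32, 0.514 and 0.747 counts per 10000, with no overlap between the setups, and thinned cells had a UMI in 79.4%, 65.7%, 40.1% and 54.0%. ARNT, its partner, was low and even, at 0.100, 0.108, 0.0936 and 0.0975 counts per 10000, and 9.70 to 11.1% of thinned cells had a UMI. The setups did not overlap for ARNT either, but their means differed by a factor of only 1.09.

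The other targets behaved each in its own way. TIPARP was at 0.889, 1.26, 1.29 and 1.30 counts per 10000, so that 3 plates were close and low-resolution replicate 1 was lower. CYP1A1 was at 0.226, 0.0982, 0.0788 and 0.107 counts per 10000, highest in low-resolution replicate 1 and overlapping between setups. AHRR was at the edge of detection, with 11, 11, 7 and 11 UMIs per plate and at most 2 in a cell. CDH1, which encodes E-cadherin, gave 0.741, 0.712, 0.448 and 0.437 and FN1, which encodes fibronectin, 5.23, 4.22, 7.97 and 7.71 counts per 10000. These UMI counts are read at transcript ends and are not scaled by length, so the genes are not ranked against each other.

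**Figure D1:**
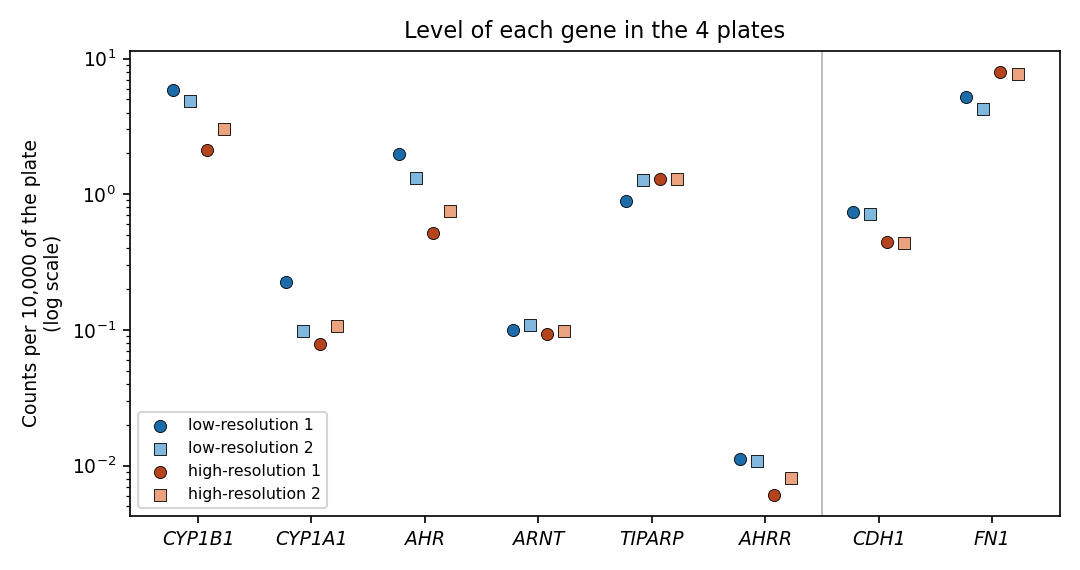
Counts per 10000 of the plate (log scale) for the 6 genes and, right of the line, CDH1 and FN1, with 1 point per plate. CYP1B1 and AHR are lower in both high-resolution plates than in both low-resolution plates, ARNT sits near 0.1 in all 4, and AHRR is at or below 0.0111.

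CYP1A1 was seen in few cells, with several UMIs in some of them. Its 223 UMIs in low-resolution replicate 1 came from 48 of 291 cells, its 99 in low-resolution replicate 2 from 27 of 271, its 90 in high-resolution replicate 1 from 24 of 291 and its 144 in high-resolution replicate 2 from 39 of 293. Single cells held up to 17, 17, 17 and 29 UMIs. Beside this, wells under 2000 features had a CYP1A1 UMI in 0 to 4.76% of cases. The variance of the thinned counts was 4.08, 2.52, 6.10 and 2.39 times their mean for CYP1A1, against 1.02 to 1.17 for ARNT. A value of 1 is that of counting alone. AHRR, with a UMI in only 2 to 4 thinned cells per plate, gave 0.989 to 0.997. So few UMIs hold the ratio near 1, and AHRR cannot serve as a comparison. CYP1B1 gave 6.61, 5.16, 3.13 and 4.72, above CYP1A1 on 3 of the 4 plates, AHR 1.03 to 1.73 and TIPARP 1.57 to 1.85. The tenth of cells richest in CYP1B1 held 30.5 to 36.7% of its UMIs.

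Whether CYP1B1 runs with the mesenchymal genes was asked with an EMT score per cell, the enrichment of 115 mesenchymal genes minus that of 65 epithelial genes, computed without CYP1B1, CDH1 and FN1. CYP1B1 was lower where the score was higher. Spearman's rho across cells was -0.192, -0.271, -0.428 and -0.358, or -0.312 ± 0.103 (SD, n = 4 plates). CDH1, an epithelial gene, gave -0.703, -0.699, -0.751 and -0.742 on the same score and FN1 0.736, 0.727, 0.763 and 0.742, so CYP1B1 had the sign of CDH1 in all 4 plates at a smaller size. Cells of a plate share library and depth, so these values carry no p. Among widely seen genes, meaning those detected on every plate in 20% of cells or more, 4 belong to the group, and 3 of these (CYP1B1, AHR and TIPARP) were below 0 in all 4 plates, as were 24.0% of the 8032 widely seen genes. None of the 4 passed -0.3 in all 4 plates, a limit passed by 2.70% of those genes. Of the 8032, 307 had a lower mean rho than CYP1B1 and 324 a lower one than AHR.

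The course was uneven. When the cells of each plate were split by score into 5 bins of equal size, CYP1B1 in low-resolution replicate 1 ran 8.40, 4.68, 4.43, 6.94 and 4.56 counts per 10000 from the most epithelial to the most mesenchymal bin. Low-resolution replicate 2 ran 5.89, 5.85, 3.71, 4.99 and 3.65. High-resolution replicate 1 ran 2.99, 2.22, 2.43, 1.98 and 0.846, and high-resolution replicate 2 ran 4.61, 3.07, 3.14, 2.87 and 1.61. The most epithelial bin was highest on each plate, by little in low-resolution replicate 2, and both low-resolution plates were higher again in the fourth bin. At equal depth the fourth bin of low-resolution replicate 2 (7.45) lay above its first (exact Poisson 95% interval 6.31 to 7.74), and bins 3 to 5 of low-resolution replicate 1 stood at 5.93, 6.42 and 6.86 with no peak in the fourth. The highest bin against the lowest was -0.88, -0.69, -1.82 and -1.52 on the log2 scale, or -1.23 ± 0.53 (SD, n = 4), a 2.34-fold lower level. With cell cycle scores regressed out of the expression before scoring, that mean was -0.50. Only the bins changed there, and the counts compared were not adjusted for cell cycle.

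**Figure D2:**
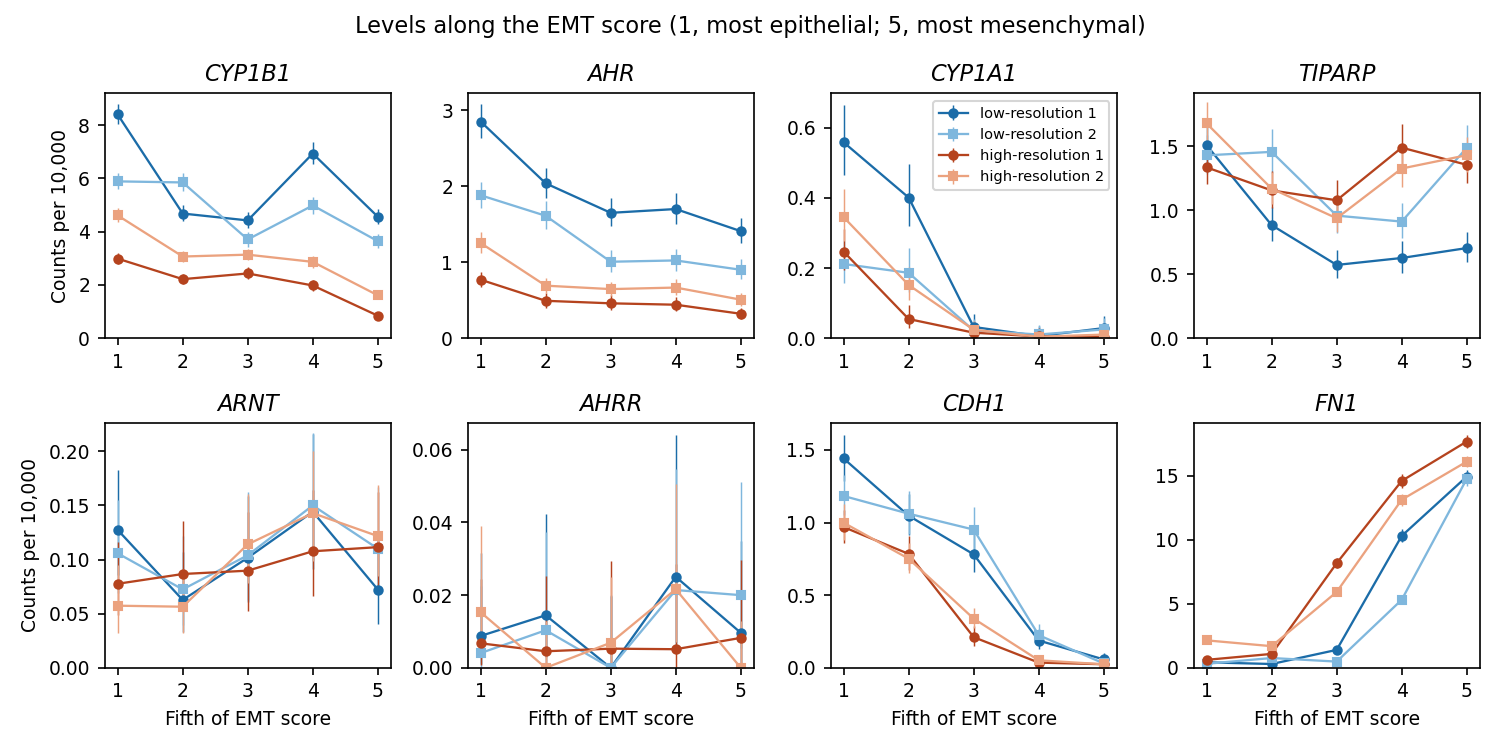
Counts per 10000 in 5 bins of cells by EMT score (1, most epithelial; 5, most mesenchymal) for 8 genes, 1 line per plate; bars are exact Poisson 95% intervals and cover counting error only. CYP1B1 and AHR are highest in bin 1 on each plate, CYP1A1 is near 0 from bin 3 on, and CDH1 is lower and FN1 higher toward bin 5.

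Along the EMT score, CYP1A1 was almost limited to the epithelial side. The 2 most epithelial bins together held 94.2%, 88.9%, 94.4% and 92.4% of its counts. In those bins 40 of 117, 19 of 109, 19 of 117 and 31 of 118 cells had a CYP1A1 UMI, or 34.2%, 17.4%, 16.2% and 26.3%. In the other 3 bins 8 of 174, 8 of 162, 5 of 174 and 8 of 175 cells had one, or 4.60%, 4.94%, 2.87% and 4.57%. At equal depth the shares were 24.1%, 13.0%, 7.89% and 12.0% in the 2 most epithelial bins against 1.75%, 0.625%, 2.35% and 2.30% in the others. There the exact 95% intervals, which count cells and not plates, overlapped in high-resolution replicate 1 (3.67 to 14.5% against 0.645 to 5.91%). Its rho with the score was -0.349, -0.174, -0.265 and -0.315, and -0.232 on average at equal depth. Single markers were also used to split the thinned cells. Those with a CDH1 UMI held 3.11, 2.00, 2.48 and 2.43 times as much CYP1A1 per cell as those without one. Cells with an FN1 UMI still held 14, 11, 19 and 17 CYP1A1 UMIs in all. Cells without one held 65, 14, 13 and 14.

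AHR was lower toward high scores, with little spread between plates. Its rho was -0.309, -0.334, -0.270 and -0.299, or -0.303 ± 0.0262 (SD, n = 4), and -0.229 on average at equal depth. From bin 1 to bin 5 it went from 2.85 to 1.41, from 1.88 to 0.900, from 0.770 to 0.322 and from 1.25 to 0.507 counts per 10000, a mean log2 ratio of -1.16 ± 0.14. With cells binned again by the score with cell cycle regressed out, the ratio of the same unadjusted counts was -0.54.

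TIPARP was lower in the middle bin than in the first and the last on all 4 plates, also at equal depth. The middle bin stood at 0.957, 1.08 and 0.937 counts per 10000 in low-resolution replicate 2, high-resolution replicate 1 and high-resolution replicate 2, against 1.43, 1.33 and 1.68 in the first bin and 1.49, 1.35 and 1.43 in the last. The fourth bin of high-resolution replicate 1 was its highest (1.49) but its lowest at equal depth (1.11 against 1.18 to 1.70). Low-resolution replicate 1 went from 1.51 to 0.572 and was at 0.704 in the last bin. The rho of TIPARP with the score was accordingly -0.330 in that plate and -0.113, -0.0252 and -0.0171 in the others, and its mean of -0.121 became -0.0538 without it. ARNT had a rho of -0.0527, -0.0148, 0.0860 and 0.177, and AHRR lay between -0.0508 and 0.102 with too few UMIs to show a course.

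**Figure D3:**
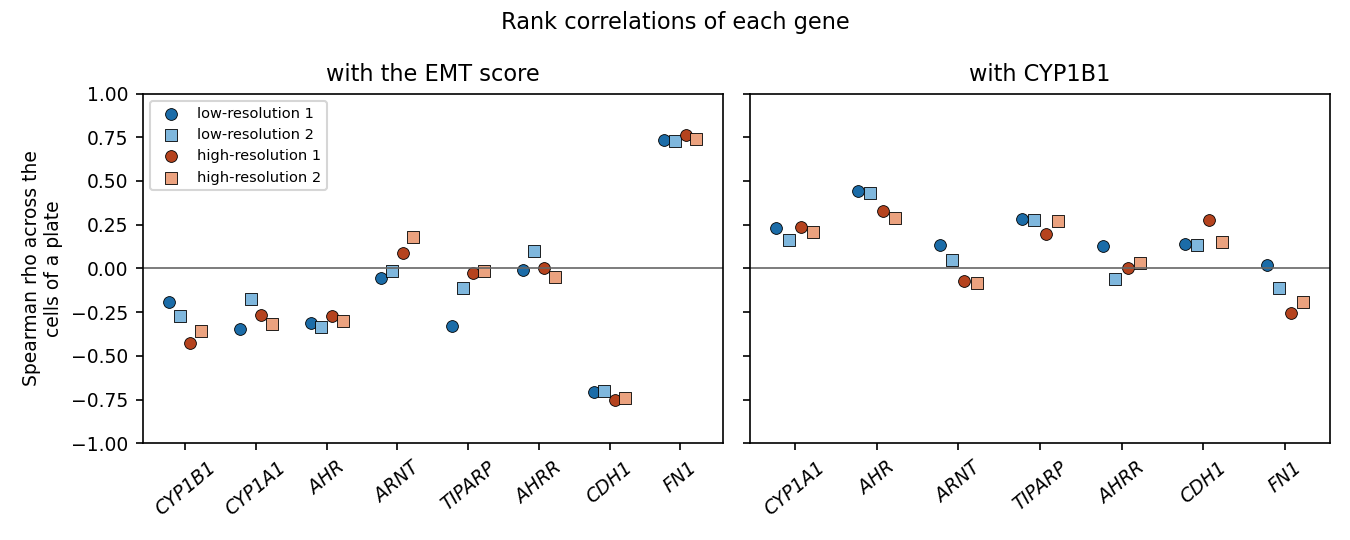
Spearman's rho across the cells of each plate, of each gene with the EMT score (left) and with CYP1B1 (right); 1 point per plate. CYP1B1, CYP1A1 and AHR lie below 0 with the score on all plates, CDH1 near -0.7 and FN1 near 0.7, while AHR and TIPARP lie above 0 with CYP1B1.

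CYP1B1 differed in sign from most of the widely seen genes of the list that names it mesenchymal. Of the 115 listed genes, 31 were widely seen in the sense above. Each was set against the mean z-score of the mesenchymal genes minus that of the epithelial genes, used here in place of the enrichment score and leaving out the gene itself, an analysis added after the data were seen. CYP1B1 gave -0.202, -0.274, -0.434 and -0.370, the lowest mean of the 31, and was the only one below 0 on all 4 plates. Of the others, 28 were above 0 on all 4, with EMP3, FN1 and TPM2 at the top. CDK14 (mean -0.0804) and GLYR1 (mean -0.0546) changed sign between plates, with a mean below 0. The median over the 31 genes was 0.389. Of the 42 epithelial list genes seen as widely, 37 were below 0 on all 4 plates and the median was -0.463, so CYP1B1 at -0.320 lay nearer to that list.

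**Figure D4:**
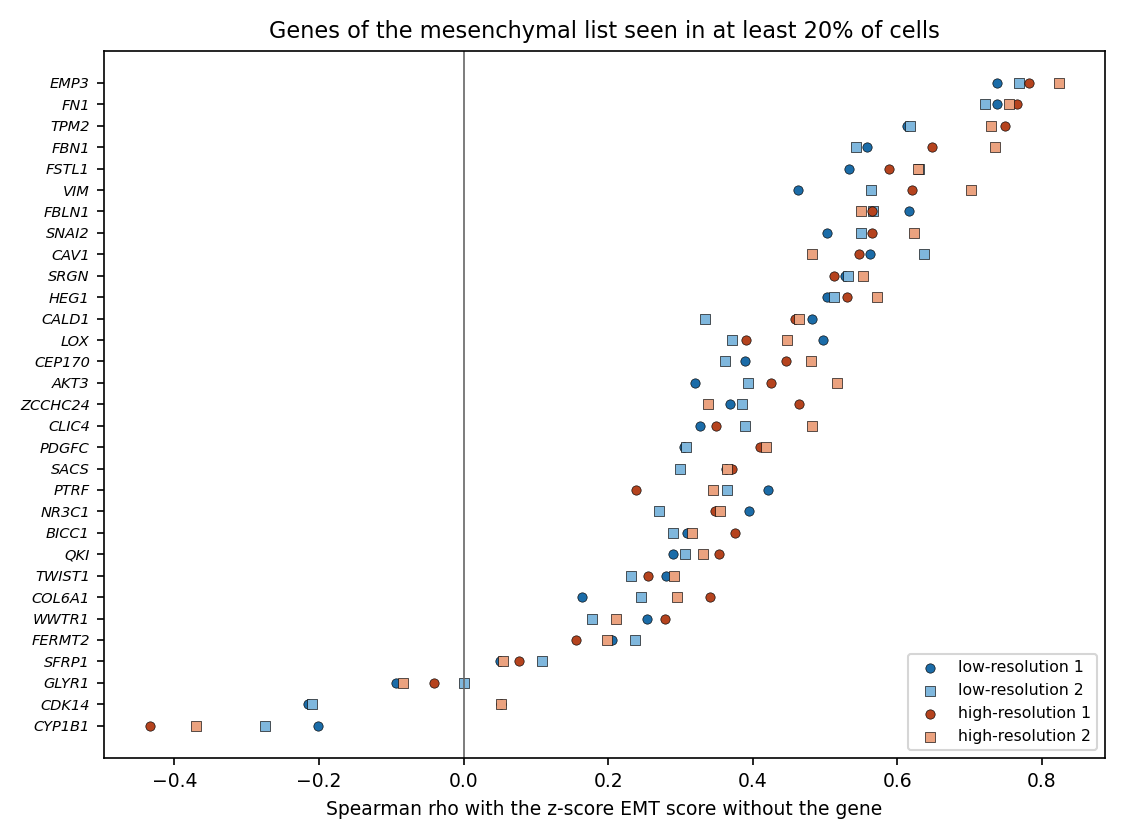
Spearman's rho across cells of 31 genes of the mesenchymal list with the mean z-score difference computed without the gene, 1 point per plate, ordered by mean. CYP1B1, at the bottom, is below 0 on each plate, while 28 genes are above 0 on each.

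Directly against the EMT markers, CYP1B1 showed a weak relation. Its rho was 0.143, 0.133, 0.276 and 0.151 with CDH1 and 0.0217, -0.114, -0.253 and -0.192 with FN1, while CDH1 and FN1 themselves gave -0.580, -0.615, -0.698 and -0.648. In cells thinned to 10000 UMIs, those with a CDH1 UMI held 7.75, 6.06, 3.02 and 3.83 CYP1B1 UMIs on average and those without one 6.52, 5.38, 2.03 and 3.28, a ratio of 1.24 ± 0.166 (SD, n = 4). Split by FN1, cells without a UMI against cells with one gave ratios of 0.926, 1.00, 1.40 and 1.01, so that high-resolution replicate 1 alone was well above 1. Cells with CDH1 and no FN1 exceeded cells with FN1 and no CDH1 by a factor of 1.07, 1.09, 1.65 and 1.05. Cells with UMIs of both genes held 8.52, 6.34, 2.96 and 4.28 CYP1B1 UMIs and were the highest of the 4 classes on 3 plates.

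Within the pathway, CYP1B1 was higher in cells that held more of its receptor. Its rho with AHR was 0.445, 0.433, 0.329 and 0.291 (0.374 ± 0.0760, n = 4), and AHR ranked 18th by mean rho with CYP1B1 among 8031 genes. TIPARP gave 0.283, 0.275, 0.198 and 0.274 and ranked 104th. CYP1A1 gave 0.233, 0.160, 0.237 and 0.210. All 4 plates were above 0 for AHR and TIPARP, as for 18.9% of the 8031 genes. ARNT gave 0.134, 0.0485, -0.0720 and -0.0828 and AHRR 0.130, -0.0620, 0.00534 and 0.0338, with no common sign. At equal depth the means were 0.257 for AHR, 0.203 for TIPARP and 0.162 for CYP1A1. With cell cycle scores regressed out of the expression they were 0.326, 0.215 and 0.0738. Only 8.25 to 16.5% of cells had a CYP1A1 UMI. In the rest the regression turns tied zeros into values set by the cell cycle scores. The last value therefore cannot tell how much of the relation with CYP1A1 remains.

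Cells in which CYP1A1 was seen carried more CYP1B1 and AHR on each plate. At equal depth cells with a CYP1A1 UMI (31, 15, 13 and 18 cells) held 11.1, 7.60, 4.08 and 5.94 CYP1B1 UMIs, against 6.56, 5.58, 2.26 and 3.27 in the remaining cells, a ratio of 1.67 ± 0.214 (SD, n = 4). AHR in the same cells was at 3.16, 3.00, 0.923 and 1.17 UMIs against 1.98, 1.31, 0.483 and 0.872, a ratio of 1.78 ± 0.411. TIPARP gave ratios of 2.56, 1.05, 1.14 and 1.53, highest in low-resolution replicate 1. ARNT gave 2.28, 1.25, 1.44 and 0.867 from 2 to 8 UMIs per plate, and AHRR had no UMI in any of these cells. Most of these cells lay in the 2 most epithelial bins (28 of 31, 14 of 15, 9 of 13 and 14 of 18). Equal-depth exact 95% intervals of CYP1B1 in the first bin were 9.17 to 10.8, 6.31 to 7.74, 3.42 to 4.46 and 4.81 to 6.02. Cells with a CYP1A1 UMI lay above it in low-resolution replicate 1 and inside it elsewhere. For AHR they lay above in the low-resolution plates and inside in the high-resolution plates. The ratios were not computed within bins.

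The genes most like CYP1B1 were sought among the 8031 genes by mean rho over the 4 plates. CTSD, the lysosomal protease cathepsin D, led with 0.442, 0.555, 0.512 and 0.471. It was followed by SLPI, a secreted inhibitor of leukocyte proteases (mean 0.479), C3, the central complement component (0.440), MUC1, an apical membrane mucin (0.435), and METTL7A (0.422). MUC1 is on the epithelial list of the score. The 5 genes with the lowest mean were LGALS1, a galectin (-0.517), the actin regulators PFN1 (-0.489) and CFL1 (-0.484), the prolyl isomerase PPIA (-0.476) and the chromatin protein HMGA1 (-0.471). Against the EMT score SLPI averaged -0.637 and CTSD -0.511 while C3 was near flat at -0.0943. The median over all genes was -0.0208, and at least 0.3 on all 4 plates was reached by 0.199% of genes and at most -0.3 by 0.436%. At equal depth 8 of the 10 were again among the 10.

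**Figure D5:**
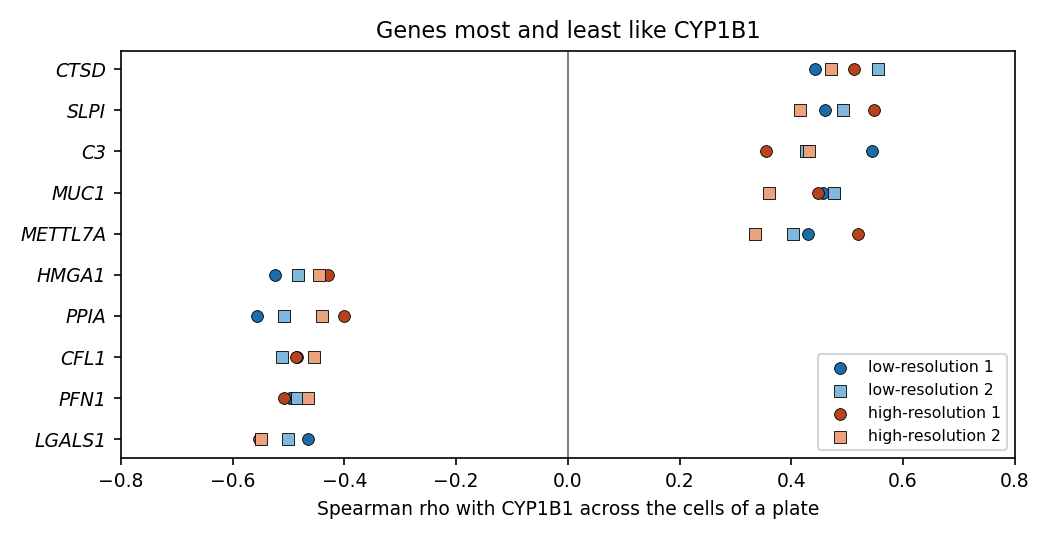
Spearman's rho with CYP1B1 across the cells of each plate for the 5 genes at either end of the ranking, 1 point per plate. The upper 5 lie between 0.336 and 0.555 and the lower 5 between -0.556 and -0.400.

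Other genes of the pathway were read from 6 lists of 42 genes, of which 37 had a row and 28 were widely seen. None of the 28 passed a rho of 0.3 in size with 1 sign on all 4 plates against the EMT score, against 5.33% of all genes. The median of their mean rho was 0.0596, beside 0.0182 over all genes, with 11 above 0 and 10 below 0 on all 4 plates, beside 35.0% and 24.0% of all genes. Among the chaperones of the receptor, HSP90AB1 averaged 0.357 and HSP90AA1 0.275 with the score and -0.316 and -0.309 with CYP1B1. HIF1A, which shares ARNT with AHR, averaged 0.391 with the score, whereas its relative EPAS1 averaged -0.211.

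Other AHR targets had no common course. SLC7A5, an amino acid transporter, averaged -0.297 and SERPINB2, a protease inhibitor, -0.204 with the score, whereas the dehydrogenase ALDH3A1 averaged 0.176 and the quinone reductase NQO1 0.111. With CYP1B1 the highest of these was NFE2L2, a transcription factor of the oxidative stress response, at 0.242. CYP1A2 gave no count at low resolution and was seen in at most 1.03% of cells at high resolution. Of 9 listed enzymes of tryptophan breakdown, which yields AHR ligands, 7 had a row. Only KYNU, kynureninase, reached 20% of cells on every plate, with a mean rho of 0.335 with the score. The list holds enzymes that use up such ligands, KYNU among them, as well as ones that make them. IDO1 was seen in at most 2.41% of cells and TDO2 in at most 0.369%. The P450 reductase POR averaged 0.0865 with the score.

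Other measures moved with CYP1B1 across the cells. Its rho was -0.393, -0.207, -0.216 and -0.201 with the S-phase score, -0.360, -0.278, -0.238 and -0.184 with the G2/M score, 0.148, 0.140, 0.319 and 0.279 with the mitochondrial share and -0.260, -0.188, -0.0363 and -0.166 with the counts per cell. AHR gave means of -0.257, -0.307, 0.209 and -0.180 in the same order. CYP1A1 averaged -0.0562 with the S-phase score and -0.0744 with the G2/M score. The EMT score itself averaged 0.122 with the S-phase score, 0.240 with the G2/M score and -0.402 with the mitochondrial share. The part of these measures in the relations above was tested only as far as the alternatives with cell cycle regressed out, equal depth or no mitochondrial counts go, under which mean rho of CYP1B1 with the EMT score was -0.264, -0.301 and -0.331.

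The one comparison with a test was that between the setups, on counts summed per plate. In edgeR's quasi-likelihood test with Benjamini-Hochberg adjustment over 12437 genes, CYP1B1 was 2.02-fold lower in the high-resolution plates, with a log2 difference of -1.02 ± 0.15 (SE; adjusted p = 0.00131). AHR had a difference of -1.34 ± 0.18 (edgeR adjusted p = 0.000879) and was 2.53-fold lower. These were 2 of the 6 genes, all of which passed the filter on low counts, while 6.18% of all genes were called lower and 6.26% higher. Both genes stayed past the threshold in each alternative fit, CYP1B1 between -0.78 and -1.28 and AHR between -1.06 and -1.62 when a plate was left out. In the same fit CDH1 was also lower, at -0.68 ± 0.12 (adjusted p = 0.00321), and FN1 higher, at 0.77 ± 0.11 (adjusted p = 0.00127). Markers of cell types moved in the same fit: of 5 basal genes tested KRT6A (0.62), KRT17 (0.54) and ITGB4 (0.53) were called higher. Of 4 luminal genes KRT19 (-1.13) alone was called, lower, while KRT18 (0.24), KRT8 (-0.08) and EPCAM (-0.11) did not pass. Of 2 immune genes CD14 (-0.96) was called lower, and of 2 endothelial genes KDR (-1.03) lower and PECAM1 (0.55) higher. CD14 had a mean rho of 0.290 with CYP1B1 across cells. The part of these differences in that of CYP1B1 and AHR was not tested. The other 4 genes of the group did not pass. CYP1A1 differed by -0.75 ± 0.30 (adjusted p = 0.118), and this call hung on single plates. Its edgeR value was -0.08 (adjusted p = 0.884) without low-resolution replicate 1, -1.20 (adjusted p = 0.00724) without low-resolution replicate 2, -0.56 (adjusted p = 0.176) without high-resolution replicate 1 and -0.97 (adjusted p = 0.00912) without high-resolution replicate 2. TIPARP differed by 0.29 ± 0.16 (adjusted p = 0.251), by 0.033 (adjusted p = 0.901) without low-resolution replicate 1 and by 0.62 (adjusted p = 0.0161) without low-resolution replicate 2. ARNT differed by -0.09 ± 0.19 (adjusted p = 0.808) and AHRR by -0.57 ± 0.49 (adjusted p = 0.481).

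In the 6 lists 34 genes were tested, of which 5 were higher and 6 lower in the high-resolution plates, beside 6.26% and 6.18% of all 12437 genes. The coregulators, which AHR shares with many other factors, held 5 of the 6 lower ones: NCOA1, NCOA3, EP300, CREBBP and NRIP1, the last at -0.71 ± 0.16 (edgeR adjusted p = 0.0146). The other was SIM2, a relative of AHR that can pair with ARNT. The coregulator list had a median log2 difference of -0.59 beside -0.02 over all genes. Higher were HSP90AB1 (0.46 ± 0.10, edgeR adjusted p = 0.0129), the targets SERPINB2 and EREG, and the tryptophan enzymes KYNU and AADAT. None of the 8 P450 partners and product-handling genes passed. The setups were separate experiments that sampled the patch differently. The setup, the sampled region and the state of the cells can therefore not be told apart here. Within each class of thinned cells by CDH1 and FN1, both high-resolution plates lay below both low-resolution plates for CYP1B1 and AHR. Cells with FN1 and no CDH1 held 6.72, 5.44, 1.88 and 3.22 CYP1B1 UMIs and 1.79, 1.15, 0.445 and 0.8155 AHR UMIs. Bins of the EMT score gave the same order, except AHR in the middle bin at equal depth. For other genes and other cell types, a lower level per cell was not separated from fewer cells of a type.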

How the data were processed

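MCF10A cells of 4 plates (2 low-resolution, 2 high-resolution, stated as biological replicates) were read by SORT-seq, a plate-based 3′ UMI method. The submitters' processing notes name STAR 2.7.3a, Seurat 4 and hg38. The deposited values are estimated counts, the authors' UMI numbers corrected for repeated barcodes among 4096 possible ones; whole UMIs were recovered from all 7245730 nonzero values to within 1e-09. Following the study, wells were kept if they had from 2000 to 9000 features and a mitochondrial share below 40%, which left fewer cells than the study states; without the mitochondrial limit 1313 wells remained. Spike-ins (0.833 to 1.38% of counts) were left out of totals. Well numbers are the same 384 on every plate, and no doublet caller was run on these sorted wells. Counts were log-normalised to 10000. The EMT score was re-implemented after GSVA (63 epithelial and 95 to 98 mesenchymal genes scored, by setup). Sums per plate were rounded and tested with edgeR 4.0.16 (TMM, filterByExpr, threshold 0.05), with DESeq2 1.42.0 as an alternative. The plate was the replicate throughout. Cell classes used cells thinned to 10000 whole UMIs, leaving out 2 to 7 cells per plate. Intervals are exact (Clopper-Pearson or Poisson) and cover counting error only. The scripts were tested on simulated data.

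The genes of the group, the 6 pathway lists and the marker lists were chosen with earlier results of these data known. Named genes are the 6 genes, CDH1, FN1, genes of these lists, and the 5 highest and 5 lowest by mean rho with CYP1B1; the genes of the mesenchymal list named by rank or sign were chosen after their values were seen. Alternatives were DESeq2, no filter on low counts, whole UMIs, no mitochondrial limit, mitochondrial counts left out, cell cycle regressed out (Seurat 5.3.0 gene lists), equal depth, a replicate block, each plate scored alone, a z-score, other limits on rho and detection, and each plate left out.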

Additional observations from a re-analysis of the deposited data

Results flagged for a closer look

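With 4 plates a value was called apart when its gap to the nearest plate took up more of the range than Dixon's 95% limit, which chance gives in about 1 of 20 groups; 30 such groups were screened and 4 passed. TIPARP stood at 0.889 counts per 10000 in low-resolution replicate 1, below the other 3 plates (1.26 to 1.30). Its rho with CYP1B1 was 0.198 in high-resolution replicate 1, under the other 3 (0.274 to 0.283). The rho of CDH1 with CYP1B1 was 0.276 in the same plate, above the other 3 (0.133 to 0.151). At equal depth the rho with CYP1B1 was 0.2485, 0.179, 0.140 and 0.244 for TIPARP. It was 0.119, 0.108, 0.211 and 0.0650 for CDH1. Neither gap of high-resolution replicate 1 then passed the limit. The log2 ratio of CDH1 between the highest and the lowest bin of the EMT score was -4.64 in low-resolution replicate 1 and -5.29 to -5.36 in the others. ARNT had opposite signs in the setups: its rho with the EMT score averaged -0.0338 at low and 0.132 at high resolution, a difference of 0.165. At equal depth that split did not hold, with -0.0602, 0.0411, 0.00619 and 0.163 on the 4 plates. Its rho with CYP1B1 averaged 0.0911 and -0.0774, a difference of -0.168. The latter kept its signs at equal depth (0.130, 0.0734, -0.0254 and -0.0853). These differences between the setups were not tested.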

How the results depend on the processing

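The rho of CYP1B1 with the EMT score kept its sign in all 10 alternatives and ranged from -0.274 to -0.357 when a plate was left out. Its rho with CDH1 and with FN1 kept their signs in each alternative that was run for them. When a plate was left out they were 0.142 to 0.190 and -0.0947 to -0.186. At equal depth they were 0.126 and -0.112, and with no mitochondrial limit 0.194 and -0.137. The log2 ratio of CYP1B1 between the highest and lowest bins was -1.02 to -1.40 without a plate. It was -0.50 for unadjusted counts in bins of the score with cell cycle regressed out. The number of genes following the score was 428, 168 at equal depth and 855 at a limit of 0.2.

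Genes called between the setups numbered 1547, then 968 at equal depth and 982 to 1172 without a plate (982 without low-resolution replicate 1, which leaves 1 flow cell and 1 low-resolution plate, assumed to vary like the others). With a replicate block 2023 were called; the numbers do not pair the plates (deviations of same-numbered plates correlate at -0.0241), and under the block CYP1B1 was at -1.03 and AHR at -1.34. CYP1A1 passed the threshold under the block (-0.68, edgeR adjusted p = 0.0324), without a filter (-0.74, edgeR adjusted p = 0.00365) and in 2 of the 4 fits that left out a plate, TIPARP without low-resolution replicate 2 alone.

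Values near 0 changed sign. ARNT with the score was -0.00798 with cell cycle regressed out; ARNT with CYP1B1 was -0.00181 with cell cycle regressed out and from -0.0354 to 0.0367 without a plate, below 0 without either low-resolution plate. AHRR with the score was -0.00461 with no mitochondrial limit, -0.0868 with cell cycle regressed out and from -0.0179 to 0.0333 without a plate. AHRR with CYP1B1 was -0.0199 at equal depth and from -0.00762 to 0.0563 without a plate. The log2 bin ratio of ARNT was from -0.0211 (without high-resolution replicate 2) to 0.62 (without low-resolution replicate 1), and its difference between setups was -0.18 to 0.0136 without a plate and 0.0124 at equal depth. The cause was not tested in any of these. AHRR, at 7 to 11 UMIs a plate, is limited by depth. ARNT and AHRR had no UMI in most cells, and regressing out the cell cycle orders those tied zeros by cell cycle score. Their values under that alternative cannot be read as what remains of a relation.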
